A study of Mus musculus with 11 samples.

Results

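Transcripts of 10 receptor tyrosine kinase genes were described in RNA sequencing libraries of primary neurospheres, balls of neural progenitors grown free in culture medium. The genes were chosen by name among the 53453 gene rows of the deposited table. They are the FGF receptors Fgfr1, Fgfr2 and Fgfr3, the ErbB receptors Egfr, Erbb2, Erbb3 and Erbb4, and Pdgfra, Met and Ddr1. The cultures came from embryonic mouse brain at E15.5, with 5 Klf5 overexpression libraries and 6 control libraries, the controls being listed with no treatment. Each library was taken as 1 embryo, since the labels count 5 overexpression and 6 control embryos. The sources used here do not give strain, sex or the way in which Klf5 was overexpressed. Levels are in TPM, a unit corrected for transcript length and library total, so that levels of different genes can be set side by side. Means are given ± SD over 5 overexpression and 6 control libraries throughout.

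Receptor tyrosine kinases are membrane proteins that pair up when a growth factor binds outside the cell, phosphorylate each other inside it, and pass the signal through adaptors to the Ras-ERK and PI3K-Akt cascades. FGF and EGF signals keep neural stem cells dividing in culture. In the developing brain Fgfr3 is known from radial glia and astrocytes, Egfr from late progenitors, Pdgfra from oligodendrocyte progenitors, and Erbb3 and Erbb4 as receptors for neuregulins on glia and neurons.

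Klf5, the zinc finger transcription factor gene named in the labels, averaged 75.8 ± 18.5 TPM with overexpression and 0.849 ± 0.297 TPM in controls, with no overlap. The listed TPM of a library summed to 730832 to 821967 with overexpression and to 814208 to 846780 in controls, a difference that every level below carries. Ribosomal RNA-like rows took 10.9 to 28.2% of the table's TPM with overexpression and 17.7 to 29.6% in controls. Neural markers were abundant: 8 neural stem and radial glia genes summed to 3703 to 5713 TPM with overexpression and 4753 to 7865 TPM in controls, and 8 oligodendrocyte progenitor genes to 1679 to 2036 TPM with overexpression and 1651 to 2803 TPM in controls. Of 4 choroid plexus and ependymal genes, which summed to 5.99 to 10.1 TPM with overexpression and 5.80 to 9.77 TPM in controls, Ttr was at 0 in every library. Aqp1, the water channel gene of that list, averaged 2.84 ± 1.67 TPM with overexpression and 0.242 ± 0.253 TPM in controls, with no overlap, and passed the filter on low values described below through its overexpression libraries alone (limma adjusted p = 0.00343, and 0.0149 without the filter). The other tested gene of that list, Foxj1, had a log2 fold change of -0.57 and did not pass the threshold given below. The part of these genes in the Fgfr3 and Erbb3 results below was not tested. Markers of blood, vessel, connective tissue and epithelial cells were lower. The highest sums were 1.99 TPM with overexpression and 0.855 TPM in controls for 8 microglia and macrophage genes, with Aif1, Cx3cr1, Tyrobp, C1qa and C1qb at 0 in every library. They were 0.728 TPM with overexpression and 1.22 TPM in controls for 7 endothelial genes, and 3.07 TPM with overexpression and 5.76 TPM in controls for 9 mural and fibroblast genes. For 7 epithelial genes they were 0.238 TPM with overexpression and 0.398 TPM in controls, and for 5 erythroid genes 0.166 TPM with overexpression and 0.833 TPM in controls.

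Fgfr3 and Erbb3 rose with Klf5 overexpression, and no tested receptor passed as lower. Throughout, rose and fell mean passing the threshold given below. Fgfr3 averaged 107.2 TPM with overexpression and 39.7 TPM in controls. Erbb3 lay far lower, at 3.18 TPM with overexpression and 0.406 TPM in controls. For both, every overexpression library lay above every control library, and the groups of the other receptors overlapped. In bulk cultures, fewer cells of a type and less RNA per cell cannot be told apart. The test was limma on log2(TPM + 1), with a Benjamini-Hochberg adjusted p under 0.05 as the threshold, over 13549 genes that reached 1 TPM in 5 or more libraries. Of the 10 receptors 9 passed this filter: Met did not, and Erbb3 passed through its 5 overexpression libraries alone, so it had to differ. In this fit 3.72% of tested genes were called, 2.29% higher (310) and 1.43% lower (194). Without the filter 1.24% of 28101 genes were called, 0.904% higher (254) and 0.338% lower (95). Groups did not overlap for 3.29% of the 13549 genes.

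**Figure D1:**
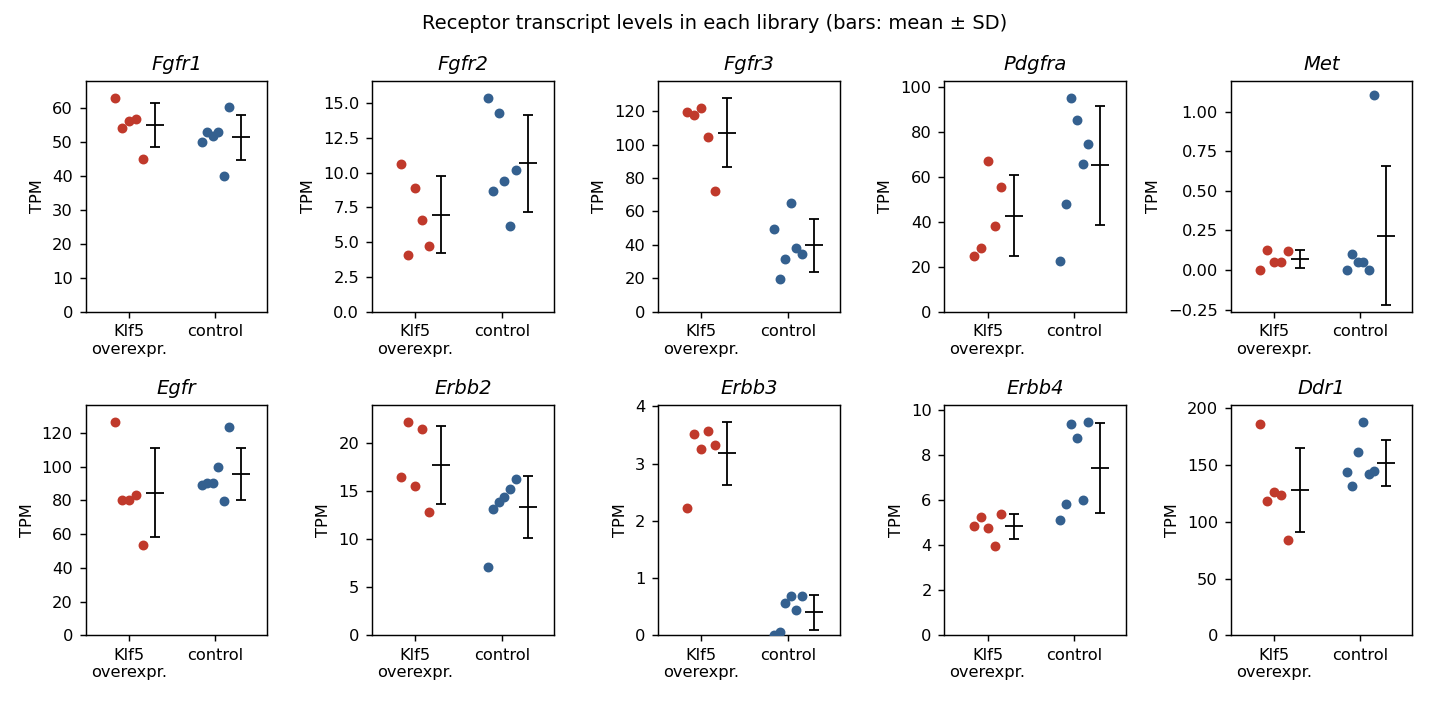
Level of each of the 10 receptors in TPM (vertical axes, which differ between panels) in the 5 Klf5 overexpression libraries (left in each panel) and the 6 control libraries (right), with mean ± SD bars; the lower bar of Met in controls runs below 0. Fgfr3 and Erbb3 have no overlap between the groups, and Met exceeds 1 TPM in control library 6 alone.

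Among the FGF receptors, Fgfr3 (ENSMUSG00000054252, chromosome 5, 33721674 to 33737068, plus strand, GRCm38) stood at 119.8, 117.6, 121.9, 104.3 and 72.4 TPM in overexpression libraries 1 to 5. Control libraries ranged from 19.6 to 64.8 TPM with a median of 36.5 TPM. Overexpression library 5, the lowest of its group, still lay above control library 4, the highest control. The ratio of means was 2.70, and 2.45 to 3.09 when each library was left out. The log2 fold change of TPM + 1 was 1.48 ± 0.24 (SE; limma adjusted p = 0.00127). With each library left out, the adjusted p was 0.000244 to 0.00553. Without the filter it was 0.0224, and with 1 overexpression library also left out, a setting chosen after the data were seen, it was 0.0185 to 0.0586, which ended the call in 4 of 5 fits (all but the one without library 5). The gene model G630022F23Rik, on the opposite strand, shares 998 exon bases with Fgfr3 and averaged 1.36 ± 0.433 TPM with overexpression and 0.571 ± 0.492 TPM in controls, far below the receptor.

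The DNA before the first of the annotated Fgfr3 starts is shown because Krüppel-like factors are known to bind GC-rich and CACCC-type letters, beside the same stretch of Egfr, an abundant receptor that did not pass the test, and of Met, which is near 0. The sequences are from RefSeq (GRCm38.p6), read on each gene's plus strand, and hold 200 bases that begin 250 bases before the RefSeq start. They lie at chr5:33721474-33721673, chr11:16751953-16752152 and chr6:17463707-17463906. By the Met coordinates given below, which are not from RefSeq, the gene starts at 17463800, so part of its stretch lies inside it. Capitals mark CACCC or its reverse complement GGGTG, and the GC box GGGCGG or its reverse complement CCGCCC; matches were allowed to overlap.
Fgfr3: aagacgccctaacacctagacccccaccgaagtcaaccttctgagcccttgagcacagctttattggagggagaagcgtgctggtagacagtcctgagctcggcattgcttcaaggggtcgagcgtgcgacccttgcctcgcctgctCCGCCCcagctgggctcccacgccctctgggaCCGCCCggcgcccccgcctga
Egfr: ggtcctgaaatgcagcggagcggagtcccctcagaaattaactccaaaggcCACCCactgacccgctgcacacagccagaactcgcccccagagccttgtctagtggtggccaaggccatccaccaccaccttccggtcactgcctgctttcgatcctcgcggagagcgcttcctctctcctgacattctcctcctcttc
Met: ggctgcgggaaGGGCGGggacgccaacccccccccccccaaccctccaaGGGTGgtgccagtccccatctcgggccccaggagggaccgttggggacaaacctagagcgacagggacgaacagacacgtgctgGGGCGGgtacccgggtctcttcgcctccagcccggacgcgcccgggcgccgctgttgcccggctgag
RefSeq gives another Fgfr3 start, whose stretch at chr5:33722056-33722255 (not printed) holds 2 GC box and 0 CACCC matches. The printed Fgfr3 stretch holds 2 GC box and 0 CACCC matches, the Egfr stretch 0 GC box and 1 CACCC match, and the Met stretch 2 GC box and 1 CACCC match. Over 32851 such stretches of annotated starts, 24.6% hold a GC box match and 44.4% a CACCC match. Sequences were matched for 8 of the 10 receptors, all but Fgfr1 and Erbb3.

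Fgfr1 (ENSMUSG00000031565, chromosome 8, 25513654 to 25575718, plus strand), the main FGF receptor of embryonic neural precursors, varied least between libraries of a group among the abundant receptors. It stood at 62.9, 54.1, 56.1, 56.8 and 45.1 TPM in overexpression libraries 1 to 5 and at 39.9 to 60.3 TPM, with a median of 52.3 TPM, in controls. The groups overlapped, with coefficients of variation of 11.7% with overexpression and 12.9% in controls. Its log2 fold change of 0.10 (95% interval -0.16 to 0.36) did not pass (limma adjusted p = 0.872).

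Fgfr2 (ENSMUSG00000030849, chromosome 7, 130162451 to 133123350, minus strand), whose epithelial splice form binds FGF7 and FGF10, was the lowest of the FGF receptors. It stood at 10.6, 4.07, 8.89, 6.56 and 4.69 TPM in overexpression libraries 1 to 5 and at 6.19 to 15.4 TPM, with a median of 9.78 TPM, in controls. Overexpression libraries 2 and 5 lay below every control and the others among the controls. After adjustment the log2 fold change of -0.57 ± 0.25 (SE; 95% interval -1.11 to -0.03) did not pass (limma adjusted p = 0.351). In GENCODE M21 the Fgfr2 span overlaps 69 other genes, of which only Ctbp2, a transcriptional corepressor gene, shares exon bases with it (314 bases, same strand). The stretch before the RefSeq start of Fgfr2 lies at chr7:130266859-130267058, far inside this M21 span. Why the M21 span runs beyond that start was not looked into, so the other genes in it are not taken as part of Fgfr2. Ctbp2 averaged 30.2 ± 12.9 TPM with overexpression and 50.7 ± 15.4 TPM in controls (limma adjusted p = 0.194, but 0.013 with array weights and 0.0163 without control library 1). Its part in the Fgfr2 values was not tested. Htra1, a secreted protease gene in that span on the other strand, shares 0 exon bases; it averaged 7.00 ± 5.99 TPM with overexpression and 24.0 ± 5.53 TPM in controls (limma adjusted p = 0.00891, and 0.0833 without the filter). Of the other genes in the span, called as well were Cpxm2, a carboxypeptidase family gene, and Fam53b, both higher, on the strand of Fgfr2 and sharing 0 exon bases with it. Cpxm2 averaged 2.667 ± 1.081 TPM with overexpression and 0.415 ± 0.279 TPM in controls. It passed the filter through its overexpression libraries alone, so it had to differ in fits with the filter (limma adjusted p = 0.0065). Those fits give no support. Over the other settings, no filter included, the limma adjusted p was 0.00146 to 0.0386, and so at most 0.0386 without the filter. Fam53b averaged 9.99 ± 2.21 TPM with overexpression and 4.99 ± 1.92 TPM in controls (limma adjusted p = 0.0364, but 0.128 without the filter). Leaving out single libraries gave an adjusted p of 0.0286 to 0.101 for Fam53b. This was above the threshold in 7 of 11 fits, those without control library 1, 2 or 5 or overexpression library 1, 2, 3 or 4.

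Within a library, the shares of the FGF receptors do not depend on the library's total, and none of them overlapped between the groups. Fgfr3 made up 62.0, 66.9, 65.2, 62.2 and 59.3% of the summed TPM of Fgfr1, Fgfr2 and Fgfr3 in overexpression libraries 1 to 5, and 24.1 to 51.0% in controls. Fgfr1 made up 30.0 to 36.9% with overexpression and 41.6 to 65.2% in controls. Fgfr2 made up 2.31 to 5.49% with overexpression and 7.34 to 14.6% in controls. Fgfr3 exceeded Fgfr1 in 5 of 5 overexpression libraries and in 1 of 6 control libraries. The summed levels overlapped, at 122.2 to 193.3 TPM with overexpression and 81.3 to 127.1 TPM in controls. These shares rest on the same values as the levels and were not tested.

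**Figure D2:**
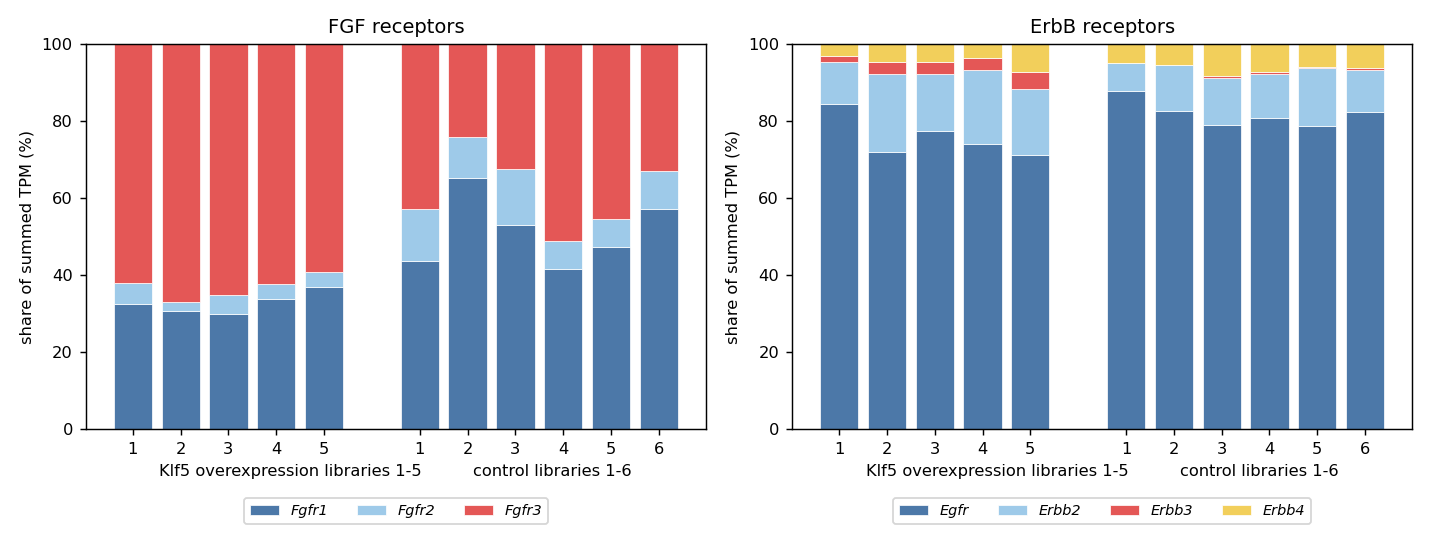
Share of each gene in the summed TPM (vertical axes, %) of 3 FGF receptors (left) and 4 ErbB receptors (right), for Klf5 overexpression libraries 1 to 5 followed by control libraries 1 to 6 (horizontal axes). Fgfr3 takes 59.3 to 66.9% with overexpression and 24.1 to 51.0% in controls, and Erbb3 takes 1.48 to 4.45% with overexpression and 0 to 0.553% in controls.

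Among the ErbB receptors, Egfr was the most abundant in every library. Egfr (ENSMUSG00000020122, chromosome 11, 16752203 to 16918158, plus strand), the receptor for EGF, TGF-alpha and HB-EGF, stood at 126.6, 80.1, 80.1, 83.1 and 53.3 TPM in overexpression libraries 1 to 5 and at 79.5 to 123.8 TPM, with a median of 90.2 TPM, in controls. Overexpression library 1 lay above every control and library 5 below every control, so that the overexpression range enclosed the control range. Egfr had a log2 fold change of -0.21 (95% interval -0.58 to 0.16; limma adjusted p = 0.754).

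Erbb2 (ENSMUSG00000062312, chromosome 11, 98412470 to 98437716, plus strand), which binds no known ligand and serves as partner of the other ErbB receptors, stood at 16.5, 22.2, 15.48, 21.5 and 12.8 TPM in overexpression libraries 1 to 5 and at 7.14 to 16.2 TPM, with a median of 14.1 TPM, in controls. Of the overexpression libraries, 3 exceeded the highest control, and the groups overlapped. For Erbb2 the log2 fold change of 0.40 (95% interval -0.03 to 0.82) did not pass (limma adjusted p = 0.462).

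Erbb3 (ENSMUSG00000018166, chromosome 10, 128567523 to 128589652, minus strand), a neuregulin receptor with a nearly inactive kinase that signals through its partners, mainly Erbb2, stood at 2.22, 3.52, 3.25, 3.57 and 3.33 TPM in overexpression libraries 1 to 5. Controls ranged from 0 to 0.684 TPM with a median of 0.502 TPM, and control library 1 was listed at 0. No control reached 1 TPM, and the groups did not overlap. The ratio of means was 7.83, and 6.52 to 9.07 with each library left out. The log2 fold change of TPM + 1 was 1.59 ± 0.23 (SE; limma adjusted p = 0.000627), and 3.05 with a pseudocount of 0.1. With the filter Erbb3 had to differ, as said above. In the fit without the filter the limma adjusted p was 0.00259. With 1 overexpression library also left out it was 0.00344 to 0.00884. TPM keep no depth, so the counting error of such low levels is unknown. Erbb3 is also known from the oligodendrocyte lineage and the neural crest, whose shared transcription factor gene, Sox10, averaged 31.0 ± 8.46 TPM with overexpression and 44.2 ± 19.6 TPM in controls. Of 7 tested oligodendrocyte progenitor markers, 1 rose (Cspg4, the NG2 proteoglycan gene, at 122.7 ± 22.7 TPM with overexpression and 45.7 ± 8.07 TPM in controls) and 0 fell; 5 of the 7 had log2 fold changes below 0, with a median of -0.05, and Olig1, a lineage factor gene, averaged 1075 ± 81.8 TPM with overexpression and 1375 ± 298.9 TPM in controls (limma adjusted p = 0.33). Their part in the Erbb3 result was not tested.

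Erbb4 (ENSMUSG00000062209, chromosome 1, 68032186 to 69108059, minus strand), a neuregulin receptor known from interneurons, stood at 4.85, 5.24, 4.76, 3.98 and 5.38 TPM in overexpression libraries 1 to 5 and at 5.12 to 9.47 TPM, with a median of 7.37 TPM, in controls. Of the overexpression libraries 3 lay below the lowest control, and 5 of 6 controls lay above the highest overexpression library. After adjustment the log2 fold change of -0.50 ± 0.19 (SE; 95% interval -0.90 to -0.09) did not pass (limma adjusted p = 0.232, and 0.0651 to 0.471 over the other settings). The 8 neuron markers had log2 fold changes below 0, with 0 called, and summed to 304.3 to 396.4 TPM with overexpression and 340.1 to 487.4 TPM in controls. Their part in the Erbb4 values was not tested.

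Within the ErbB family, Erbb3 made up 1.48 to 4.45% of the summed TPM with overexpression and 0 to 0.553% in controls. The ratio of Erbb3 to its partner Erbb2 was 0.135 to 0.26 with overexpression and 0 to 0.0475 in controls. Egfr made up 71.2 to 84.3% with overexpression and 78.6 to 87.9% in controls. The shares of Erbb3 did not overlap between the groups and those of Egfr did.

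**Figure D3:**
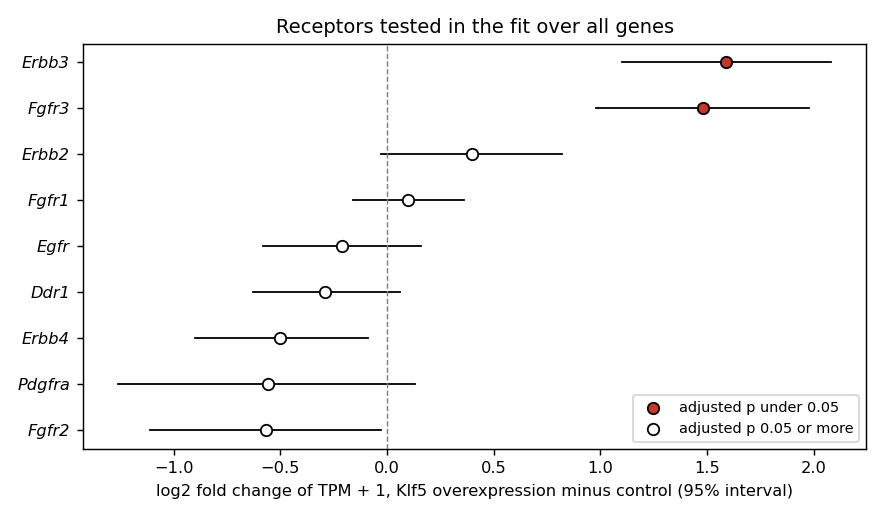
Log2 fold change of TPM + 1, Klf5 overexpression minus control (horizontal axis), with its 95% interval for the 9 receptors tested with limma; the marking of points shows which passed the adjusted p threshold of 0.05. Erbb3 at 1.59 and Fgfr3 at 1.48 passed, and the other 7 lie between -0.57 and 0.40. Erbb3 met the filter on low values through its overexpression libraries alone, so it had to differ.

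Pdgfra (ENSMUSG00000029231, chromosome 5, 75152292 to 75198215, plus strand), the receptor that drives division of oligodendrocyte progenitors, stood at 24.6, 28.4, 67.1, 38.3 and 55.4 TPM in overexpression libraries 1 to 5 and at 22.4 to 95.1 TPM, with a median of 70.2 TPM, in controls. Control library 1 was the lowest of all 11 libraries, and 3 controls lay above every overexpression library. The coefficient of variation was 42.3% with overexpression and 40.6% in controls. The log2 fold change of -0.56 (95% interval -1.26 to 0.13) did not pass (limma adjusted p = 0.563; leaving out single libraries gave 0.0903 to 0.822). Sox10, also a gene of that lineage, was lowest in the same control library, at 15.8 TPM.

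Ddr1 (ENSMUSG00000003534, chromosome 17, 35681567 to 35704621, minus strand), a receptor for collagens, had the highest mean of the 10 receptors in both groups. It stood at 186.4, 118.2, 125.9, 123.8 and 83.9 TPM in overexpression libraries 1 to 5 and at 131.8 to 187.9 TPM, with a median of 144.2 TPM, in controls. Of the overexpression libraries 4 lay below the lowest control, and library 1 lay near the highest. Its log2 fold change of -0.29 (95% interval -0.63 to 0.06) did not pass (limma adjusted p = 0.54, and 0.125 without overexpression library 1).

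Met (ENSMUSG00000009376, chromosome 6, 17463800 to 17573980, plus strand), the receptor for hepatocyte growth factor, was at most 0.129 TPM in overexpression libraries and at most 0.09993 TPM in 5 of the control libraries. Control library 6 stood apart at 1.104 TPM. The gene was listed at 0 in 1 overexpression and 2 control libraries and was too low for a comparison. Its ligand gene Hgf was listed at 0.0415 TPM in overexpression library 5 and at 0 in every other library.

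By mean TPM, the receptors ran Ddr1, Fgfr3, Egfr, Fgfr1, Pdgfra, Erbb2, Fgfr2, Erbb4, Erbb3 and Met with overexpression, and Ddr1, Egfr, Pdgfra, Fgfr1, Fgfr3, Erbb2, Fgfr2, Erbb4, Erbb3 and Met in controls. Fgfr3 thus held rank 2 with overexpression and rank 5 in controls. With overexpression the ranges of neighbours overlapped from Ddr1 down to Pdgfra. Fgfr3 exceeded Egfr in 4 of 5 of those libraries. In controls Ddr1 lay above Egfr with no overlap, while Egfr, Pdgfra, Fgfr1 and Fgfr3 overlapped from each to the next. In both groups the upper 5 genes were parted from Erbb2, and Erbb4 from Erbb3, with no overlap.

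Few ligand genes passed the filter on low values. Of 18 FGF genes, Fgf1 alone passed the filter, and Fgf4, Fgf6, Fgf15 and Fgf16 were at 0 in every library. Fgf1, which binds all FGF receptors, stood at 15.3, 20.7, 14.5, 14.4 and 11.9 TPM in overexpression libraries 1 to 5 and at 5.93 to 8.41 TPM, with a median of 6.65 TPM, in controls. Every overexpression library exceeded every control. The log2 fold change was 1.03 ± 0.16 (SE; limma adjusted p = 0.0013). Fgf2, chosen after its values were seen because neurosphere media usually hold its protein, was at most 0.314 TPM with overexpression and 0.116 TPM in controls.

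Of 5 PDGF and HGF genes 2 were tested, and Pdgfc, a ligand gene of Pdgfra, rose. It stood at 19.3, 18.9, 17.1, 23.6 and 15.4 TPM in overexpression libraries 1 to 5 and at 2.14 to 7.07 TPM, with a median of 5.38 TPM, in controls. The groups did not overlap, and the log2 fold change was 1.80 ± 0.23 (SE; limma adjusted p = 0.000223). Pdgfa, which also encodes a ligand of Pdgfra, averaged 18.1 ± 3.32 TPM with overexpression and 12.4 ± 2.68 TPM in controls (limma adjusted p = 0.15). It passed with trimmed-mean scaling (0.0157), quantile normalization (0.0207) and removal of ribosomal RNA-like rows (0.0234).

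Of 11 EGF and neuregulin genes, Hbegf and Tgfa passed the filter and 0 were called. Hbegf averaged 4.97 ± 2.19 TPM with overexpression and 7.62 ± 4.39 TPM in controls (limma adjusted p = 0.623). Tgfa averaged 10.02 ± 2.46 TPM with overexpression and 11.2 ± 4.24 TPM in controls (limma adjusted p = 0.96). Nrg1, Nrg2, Nrg3 and Nrg4, whose proteins bind Erbb3, Erbb4 or both, stayed below 1 TPM in every library. Nrg2, the highest of them and chosen after its values were seen, reached 0.589 TPM with overexpression and 0.988 TPM in controls. Of 13 genes for collagen ligands of Ddr1, 4 were tested and 0 called, with a median log2 fold change of -0.22. Col4a1, a basement membrane collagen gene, averaged 5.42 ± 2.06 TPM with overexpression and 2.69 ± 1.001 TPM in controls (limma adjusted p = 0.129, but 0.0215 with array weights). Col4a5 and Col5a1 had log2 fold changes of -0.59 and -0.27 (limma adjusted p = 0.288 and 0.706).

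**Figure D4:**
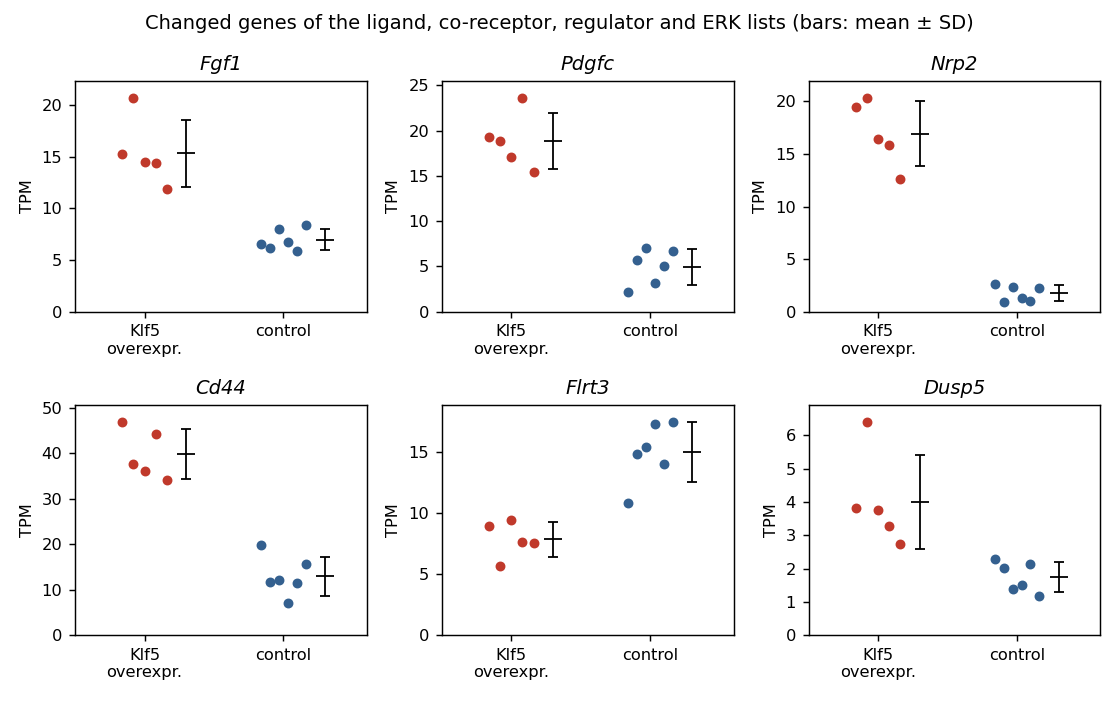
Level in TPM (vertical axes, which differ between panels) of the 6 called genes of the ligand, co-receptor, regulator and ERK feedback lists in the 5 Klf5 overexpression libraries (left in each panel) and the 6 control libraries (right), with mean ± SD bars. Flrt3 is lower with overexpression and the other 5 are higher. The groups do not overlap in any panel, which follows largely from showing only called genes.

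Of 16 co-receptor genes 13 were tested, of which 2 rose and 0 fell, with a median log2 fold change of 0.04 beside -0.04 over all tested genes. Nrp2, a co-receptor for semaphorins and VEGF, stood at 19.4, 20.3, 16.5, 15.9 and 12.7 TPM in overexpression libraries 1 to 5 and at 0.952 to 2.63 TPM, with a median of 1.78 TPM, in controls. The groups lay far apart, with a ratio of means of 9.68 and a log2 fold change of 2.73 ± 0.22 (SE; limma adjusted p = 1.14e-06). Cd44, a hyaluronan receptor that can present growth factors to Met and ErbB receptors, stood at 46.9, 37.6, 36.2, 44.2 and 34.0 TPM in overexpression libraries 1 to 5 and at 7.18 to 19.8 TPM, with a median of 11.9 TPM, in controls. Its groups did not overlap either (log2 fold change 1.59 ± 0.20, SE; limma adjusted p = 0.000131). Sdc2, a heparan sulfate proteoglycan gene, had a log2 fold change of -0.42 (limma adjusted p = 0.297). Fgfrl1, an FGF receptor without a kinase domain, chosen after its values were seen, averaged 58.8 ± 6.37 TPM with overexpression and 55.9 ± 10.6 TPM in controls.

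Of 17 genes for proteins that bind and regulate these receptors 16 were tested, of which 0 rose and 1 fell, with a median log2 fold change of -0.13. The gene that fell was Flrt3, a membrane protein gene known from Xenopus to promote FGF receptor signals. It stood at 8.94, 5.66, 9.40, 7.67 and 7.57 TPM in overexpression libraries 1 to 5 and at 10.8 to 17.5 TPM, with a median of 15.1 TPM, in controls. The groups did not overlap, and the log2 fold change was -0.85 ± 0.17 (SE; limma adjusted p = 0.00642). Lrig1, an inhibitor of ErbB receptors, averaged 146.6 ± 21.7 TPM with overexpression and 173.0 ± 9.86 TPM in controls (limma adjusted p = 0.367). Cbl, a ubiquitin ligase gene whose product marks receptors for degradation, averaged 31.2 ± 6.45 TPM with overexpression and 24.99 ± 2.57 TPM in controls (limma adjusted p = 0.423).

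Of 11 genes for sheddases and heparan sulfate enzymes 10 were tested and 0 called, with a median log2 fold change of -0.07. Adam19, a metalloprotease gene whose product cleaves neuregulins, averaged 43.1 ± 8.24 TPM with overexpression and 26.9 ± 8.10 TPM in controls (limma adjusted p = 0.0799, but 0.0386 with array weights and 0.0385 without control library 2). Adam9 and Adam12 had log2 fold changes of -0.27 and -0.16 (limma adjusted p = 0.525 and 0.765).

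Inside the cell, 32 of 35 genes for adaptors and signal transducers were tested and 0 called, with log2 fold changes between -0.45 and 0.43. Mapk3, the ERK1 kinase gene, averaged 64.7 ± 8.89 TPM with overexpression and 50.1 ± 5.95 TPM in controls (limma adjusted p = 0.161). It passed with trimmed-mean scaling (0.00352), quantile normalization (0.00428) and removal of ribosomal RNA-like rows (0.00315). The adaptor genes Shc3 and Gab1 had log2 fold changes of -0.45 and -0.32 (limma adjusted p = 0.163 and 0.277).

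Of 12 tested genes of ERK feedback and Ets targets 1 rose and 0 fell. The median log2 fold change was 0.08, beside -0.04 over all tested genes, and 11 values were above 0. The share of values above 0 over all tested genes was not taken, and the direction of the list was not tested. Dusp5, a nuclear ERK phosphatase gene, stood at 3.81, 6.40, 3.77, 3.29 and 2.73 TPM in overexpression libraries 1 to 5 and at 1.17 to 2.28 TPM, with a median of 1.77 TPM, in controls. The groups did not overlap, and the limma adjusted p was 0.0466 (log2 fold change 0.84 ± 0.22, SE). With each library left out it was 0.0385 to 0.149, above the threshold for all libraries but control 1 and overexpression 5. In 5 of 8 other settings it was above the threshold as well. These were no filter (0.121), a pseudocount of 0.1 (0.0567), quantile normalization (0.0577), a replicate block (0.13) and the 10 libraries of the block without it (0.104). Etv5, an Ets factor gene induced by FGF signals, averaged 252.8 ± 38.9 TPM with overexpression and 209.7 ± 30.6 TPM in controls (limma adjusted p = 0.452, but 0.0348 with trimmed-mean scaling). Dusp4 had a log2 fold change of 0.20 (limma adjusted p = 0.704).

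Of 48 other receptor tyrosine kinase genes 22 were tested and 0 called, with log2 fold changes between -1.26 and 0.71. Ddr2, a collagen receptor gene related to Ddr1, averaged 2.80 ± 1.74 TPM with overexpression and 7.86 ± 3.95 TPM in controls (limma adjusted p = 0.0765, but 0.0474 without control library 3). The ephrin receptor genes Ephb3 and Ephb2 had log2 fold changes of 0.66 and 0.71 (limma adjusted p = 0.0804 and 0.175). Ephb3 passed with trimmed-mean scaling (0.0187), quantile normalization (0.0222), removal of ribosomal RNA-like rows (0.0261) and array weights (0.0332), and without control library 4 (0.0362) or overexpression library 5 (0.0159). Ephb2 passed with array weights (0.0366). Fgfr4, chosen after its values were seen, was at most 0.321 TPM with overexpression and 0.104 TPM in controls. Over the ligand, regulator, signalling and kinase lists together, 6 of 114 tested genes were called, or 5.26%, beside 3.72% over all tested genes.

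Genes with the pattern most like that of Fgfr3 and Erbb3 were found by the root-mean-square difference of log2(TPM + 1), each gene centred on its own mean over the 11 libraries, among 11393 tested genes. For Fgfr3 they were Cd9, a tetraspanin gene, at 0.207, Myadm at 0.308, and Ezr, the gene of the membrane-cytoskeleton linker ezrin, at 0.338. Cd9 averaged 167.0 ± 44.4 TPM with overexpression and 68.5 ± 19.1 TPM in controls. For Erbb3 they were Mcam, a cell adhesion molecule gene, at 0.234, S1pr2, a sphingosine-1-phosphate receptor gene, at 0.263, and Rarg, a retinoic acid receptor gene, at 0.295. Mcam averaged 272.4 ± 40.2 TPM with overexpression and 86.5 ± 12.9 TPM in controls. The scale of log2(TPM + 1) understates the change of Erbb3, which is low: its ratio of means was 7.83, against 3.15 for Mcam. That the groups did not overlap for these genes follows largely from choosing them by likeness to Fgfr3 and Erbb3 over the same libraries.

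Fgfr3 is known from astrocytes and radial glia, and their markers are given beside it. Among astrocyte markers 5 were tested, with 1 higher and 1 lower; 3 had log2 fold changes below 0. S100b, a calcium-binding protein gene, averaged 8.42 ± 5.13 TPM with overexpression and 0.956 ± 0.599 TPM in controls (limma adjusted p = 0.00031). Aldh1l1, a folate enzyme gene, averaged 15.8 ± 9.27 TPM with overexpression and 62.6 ± 16.7 TPM in controls (limma adjusted p = 0.000692). Gfap, the intermediate filament gene of mature astrocytes, was at most 0.571 TPM with overexpression and 0.082 TPM in controls. The 6 astrocyte markers summed to 119.3 to 201.2 TPM with overexpression and 182.0 to 226.5 TPM in controls. Of 8 neural stem and radial glia markers, 6 had log2 fold changes below 0, with a median of -0.07. Among them Slc1a3, a glutamate transporter gene, fell (limma adjusted p = 0.00892). Vim, the vimentin gene, rose (limma adjusted p = 0.0365, but 0.143 without the filter). Leaving out single libraries gave an adjusted p of 0.0176 to 0.119 for Vim, above the threshold in 9 of 11 fits. Hes5, a Notch target gene, averaged 69.0 ± 27.7 TPM with overexpression and 125.2 ± 39.7 TPM in controls (limma adjusted p = 0.0623). Fabp7, a fatty acid binding protein gene of radial glia, averaged 2105 ± 552.5 TPM with overexpression and 3596 ± 1073 TPM in controls (limma adjusted p = 0.069). Their part in the Fgfr3 result was not tested.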

How the data were processed

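The deposited values are TPM per gene, which the authors made before deposit, in 1 table with 1 column per library. The submitters' processing notes name HISAT2, StringTie, HTSeq and DESeq2 and the build GRCm38.p5, without versions or roles. The sources used here do not give the annotation release, strand setting, depth, or which library was made with which of the 2 kits named in the labels, so no batch was tested and no counting interval is given. Without the strand setting, it is unknown how reads in exon bases shared by overlapping genes were assigned.

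Of 53453 rows, 53255 had a symbol; coordinates are from GENCODE M21 (GRCm38). Tests used limma 3.58.1 (R 4.3.3) with a variance trend, two-sided, on log2(TPM + 1), adjusted over all 13549 tested genes. This scale understates changes of low genes. The fit was tested on simulated data. Summaries used Python 3.11.15. The receptors and gene lists were chosen with earlier results of these data known. The genes named are the receptors, of each pathway list the 3 members with the smallest p and further called members, and the 3 genes most like each called receptor. Of genes that overlap a receptor, the text names G630022F23Rik, Ctbp2 and the called ones, a choice made after their values were seen, as were the marker genes named (the called ones and a few others). Each fit was repeated with array weights, a replicate block, quantile normalization, trimmed-mean scaling, a filter of 5 TPM or none, a pseudocount of 0.1, removal of 357 ribosomal RNA-like rows, and each library left out. P-values set the difference between the groups against the spread between these libraries.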

Additional observations from a re-analysis of the deposited data

Results flagged for a closer look

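Of 22 groups of values (10 receptors and Klf5, in both groups of libraries), 3 held a library far from the others, judged by its gap to the nearest library as a share of the group's range; about 1 in 20 groups shows such a gap by chance. Erbb3 in overexpression library 1 was 2.22 TPM, with the next library at 3.25 TPM and a gap of 0.759 of the range, and it still lay above all controls. Erbb2 in control library 1 was 7.14 TPM, with the next at 13.1 TPM and a gap of 0.657 of the range. Among the controls, Pdgfra, Erbb3 and Erbb4 were also lowest in this library, while Fgfr2 was highest there, at 15.4 TPM. Met in control library 6 was 1.104 TPM, with the next at 0.09993 TPM and a gap of 0.909 of the range.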

How the results depend on the processing

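The Fgfr3 call held under each listed alternative. Erbb3 stayed called wherever it could be tested, but with the filter of 1 TPM it had to differ, so those fits give no support. In the fit without a filter its limma adjusted p was 0.00259. The other 7 tested receptors kept their direction and missed the threshold under each alternative. The number of receptors called was 2, and 1 to 2 with a library left out, since Erbb3 leaves the tested genes without any overexpression library. It was 1 with the filter of 5 TPM for the same reason. In fits added after the data were seen, without a filter and without 1 overexpression library, it was 1 in 4 of 5, where Fgfr3 missed the threshold. The 504 called genes were 353 to 492 with a library left out, with 206 to 313 higher (206 without overexpression library 4) and 117 to 212 lower (125 without control library 3, 129 without control library 6, and 117 and 129 without overexpression libraries 2 and 5). Lower genes numbered 95 with no filter, 311 with quantile normalization and 129 in the 10 libraries of the block without it. The 6 called pathway genes were 5 to 8 with a library left out, 12 with trimmed-mean scaling, 10 with quantile normalization and 10 with array weights; the cause was not tested. The log2 fold change of Tgfa, -0.09, was -0.27 to 0.01 with a library left out, and 0.01 without control library 3 or overexpression library 4. Replicate numbers showed no clear pairing of the libraries, though 5 pairs cannot exclude one. Same-numbered libraries had correlations of deviations of -0.04 to 0.30, with 1 of 5 above 0.1 and 1 of 5 best with its own number. With a replicate block over 10 libraries 426 genes were called, against 406 without it, and 2 receptors with it. Unknown depth limits statements on Erbb3, Met and the low ligand genes.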
